A study of Mus musculus with 14 samples.

Results

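Sprouty, Spred and dual-specificity phosphatase genes encode inhibitors that the ERK pathway switches on against itself. The 9 genes described here are Spry1, Spry2, Spry4, Spred1, Spred2, Spred3, Dusp4, Dusp5 and Dusp6. They were taken as a list of negative-feedback genes of this pathway and not for their measured values, though earlier results of these data were known. They are 9 of 23152 genes with a value on the array, and all 9 lay above the limit for dim genes that left 17364 genes to be tested. The value of a gene in an array was the median of the probesets that name that gene alone, on the deposited log2 scale.

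The 14 arrays (Affymetrix) came from 7 cultures of neural stem cells from the subventricular zone of neonatal mice at postnatal day 4, a brain region whose stem cells give neurons and glia. Each culture, here called a clone as in the labels, was set up from 1 animal, and cultures of both genotypes had received an adenovirus carrying Cre recombinase. Clones 5 to 7 (Cic-/-) carried the conditional allele Cicflox/flox, and clones 1 to 4 were Cic+/+. Every clone was kept for 24 h in NeuroCult proliferation medium with EGF and also without EGF. The 4 groups were therefore Cic-/- with EGF (3 arrays), Cic-/- without EGF (3), Cic+/+ with EGF (4) and Cic+/+ without EGF (4). Each animal is represented by 1 culture, so the spread between clones is a spread between animals and their cultures together.

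When EGF binds its receptor, Ras activates Raf, MEK and ERK in turn, and ERK changes transcription. Sprouty proteins act on the path from receptor to Raf, and Spred proteins bring neurofibromin, which switches Ras off, to the membrane. Dusp4, Dusp5 and Dusp6 remove phosphate from ERK, Dusp4 and Dusp5 in the nucleus and Dusp6 in the cytoplasm. Capicua, encoded by Cic, is a DNA-binding repressor of genes of the same pathway, and ERK signalling relieves its repression. The arrays thus allow 3 questions about these genes: whether they differ without capicua, whether they differ with EGF, and whether the EGF difference depends on capicua.

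Capicua is known to bind a set of 4 related octamers, so the promoters of the 9 genes were searched for TGAATGAA, TGAATGGA, TCAATGAA and TCAATGGA on both strands. RefSeq promoters (assembly GRCm38.p6, 250 bases before to 50 after the start) were matched for 7 of the 9 genes, and those of Spry4 and Dusp4 were not analysed here. The promoters of Spry2, Spred3 and Dusp6 held a match, and those of Spry1, Spred1, Spred2 and Dusp5 held none of these letters in this window. Of 32851 promoters of the same length, 3.84% held at least 1 of the 4 words. TCAATGAA was in 0.749% of them, TGAATGAA in 1.3% and TCAATGGA in 0.67%. The 3 promoters with a match are shown from 100 bases before to 30 bases after the start, 5′ to 3′ on the strand of the gene, with each match in capitals. They lie at chr14:105896790-105896919 on the minus strand for Spry2, at chr7:29168618-29168747 on the minus strand for Spred3 and at chr10:99263131-99263260 on the plus strand for Dusp6.
Spry2: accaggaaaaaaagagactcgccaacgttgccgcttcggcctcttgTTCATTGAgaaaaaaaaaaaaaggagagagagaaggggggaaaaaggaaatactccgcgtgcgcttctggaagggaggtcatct
Spred3: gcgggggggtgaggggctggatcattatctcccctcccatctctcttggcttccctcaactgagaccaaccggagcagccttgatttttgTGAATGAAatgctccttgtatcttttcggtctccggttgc
Dusp6: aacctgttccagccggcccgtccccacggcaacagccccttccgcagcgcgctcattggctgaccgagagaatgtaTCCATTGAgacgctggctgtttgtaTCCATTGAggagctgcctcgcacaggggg
The Spry2 promoter has TCAATGAA on the opposite strand, beginning at base -54 from the start, where it reads TTCATTGA. The Spred3 promoter has TGAATGAA on its own strand, beginning at base -10. The Dusp6 promoter has TCAATGGA on the opposite strand in 2 places, beginning at base -24 and at base 2, where it reads TCCATTGA. A match is a description of the letters and no evidence of binding.

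Array medians lay between 6.488 and 6.536, and any pair of arrays correlated over genes at 0.959 to 0.9883. Their number limits the precision. Cic itself lay between 7.399 and 7.666 in Cic-/- with EGF, against 9.408 to 9.688 in Cic+/+ with EGF, and between 7.043 and 7.477 in Cic-/- without EGF, against 9.184 to 9.639 in Cic+/+ without EGF. The mean of 8 stem cell and radial glia markers was 10.34 to 10.76 in all 14 arrays, though single markers were less even. Sox2 averaged between 11.45 and 11.72 in the 4 groups. Nes averaged 9.977 with EGF and 9.136 without in Cic-/-, and 10.18 with EGF and 8.862 without in Cic+/+. The mean of 4 microglia markers was 5.124 to 5.499 and that of 3 endothelial markers 4.32 to 4.836, with Aif1 and Cldn5 under the dim limit of 4.402 and the others above it. The mean of 15 mitosis genes was 7.774, 9.05 and 8.905 in Cic-/- clones 5 to 7 with EGF, below the 9.164 to 9.904 of Cic+/+ with EGF, and 7.665, 9.098 and 9.267 in Cic-/- without EGF, against 9.101 to 9.183 in Cic+/+ without EGF. For the loss of Cic with EGF 0 of these 15 genes passed, and their median change was -0.95. At an unadjusted p under 0.05, 8 of the 15 were lower, as were 5.52% of all genes. Clone 5 was the low clone in both media. Clone 4 stood apart by Xist, at 3.83 to 4.729 against 11.96 to 12.57 in the other clones.

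Spry4 and Spred3 were higher with EGF in both genotypes, and they were the only genes of the 9 to pass for EGF over all clones. Averaged over both genotypes, Spry4 rose by 0.86 ± 0.18 (log2 ± SE, 1.82-fold, adjusted p = 0.0159) and Spred3 by 0.40 ± 0.080 (1.32-fold, adjusted p = 0.0128) in the limma fit, and both were higher with EGF in 7 of 7 clones. Of all genes tested, 1.64% passed in this direction, 6.04% were higher with EGF in all 7 clones, and the average over genotypes was added after the data were seen. With the clone as a random block, which uses the fact that both media were applied to cultures of the same animal, the adjusted p values were 0.00181 for Spry4 and 0.00175 for Spred3. That fit called 4.95% of all genes higher. No gene of the 9 passed for the loss of Cic.

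Of the Sprouty genes, Spry4 rose with EGF over both genotypes. Its log2 level was 11.32, 11.84 and 11.72 in Cic-/- clones 5 to 7 with EGF and 10.74, 10.23 and 11.04 in the same clones without EGF. It was 11.79, 11.99, 11.31 and 11.78 in Cic+/+ clones 1 to 4 with EGF and 11.30, 10.87, 10.38 and 11.24 in these clones without EGF. Within each genotype the arrays with EGF and those without did not overlap, while the genotypes overlapped in each medium. The EGF difference was 0.96 ± 0.27 in Cic-/- (1.94-fold) and 0.77 ± 0.23 in Cic+/+ (1.71-fold). The limma fit without a clone block gave Cic-/- cells an adjusted p of 0.214 and Cic+/+ cells 0.16, and the fit with the block gave 0.0408 in Cic-/- and 0.0325 in Cic+/+. In descending order the group means were 11.72 ± 0.29 in Cic+/+ with EGF, 11.63 ± 0.28 in Cic-/- with EGF, 10.95 ± 0.42 in Cic+/+ without EGF and 10.67 ± 0.41 in Cic-/- without EGF (SD, n = 4, 3, 4 and 3). Only the step between the means with EGF and those without exceeded the SDs.

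Spry2 was lower in every Cic-/- array, a difference that did not pass the test. In Cic-/- with EGF it was 11.01, 10.90 and 10.93, against 11.23, 11.16, 11.17 and 11.14 in Cic+/+ with EGF. In Cic-/- without EGF it was 11.00, 10.91 and 10.65, against 11.18, 11.13, 11.20 and 11.35 in Cic+/+ without EGF. The genotypes did not overlap in either medium, as held in both media at once for 1.55% of all genes tested in this direction. The difference was -0.23 ± 0.12 with EGF (adjusted p = 0.532) and -0.36 ± 0.12 without (adjusted p = 0.262), with 95% intervals from -0.49 to 0.03 and from -0.62 to -0.10, and neither passed. The EGF difference of Spry2 was 0.09 ± 0.13 in Cic-/- and -0.04 ± 0.11 in Cic+/+.

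Spry1 had a wide spread in Cic-/- cells. It was 10.82, 10.80 and 10.51 in Cic-/- with EGF, against 11.05, 11.13, 11.15 and 10.88 in Cic+/+ with EGF, and these groups did not overlap. Without EGF it was 10.99, 10.05 and 9.97 in Cic-/-, against 10.84, 10.93, 10.64 and 10.76 in Cic+/+. Clone 5, the clone with low mitosis genes, was above all Cic+/+ arrays without EGF, and clones 6 and 7 were below them. The difference between genotypes without EGF was -0.46 ± 0.21 (adjusted p = 0.447) and became -0.79 (adjusted p = 0.0428) when clone 5 was left out. The part of the mitosis level in this was not tested.

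Of the Spred genes, Spred3 rose with EGF over both genotypes. It was 8.91, 8.94 and 8.88 in Cic-/- with EGF and 8.54, 8.37 and 8.54 in Cic-/- without EGF. It was 8.66, 8.62, 8.71 and 8.80 in Cic+/+ with EGF and 8.26, 8.32, 8.28 and 8.43 in Cic+/+ without EGF. Its SDs were from 0.0285 to 0.0981, and all arrays with EGF lay above all arrays without EGF whatever the genotype. The EGF difference was 0.43 ± 0.12 in Cic-/- (1.35-fold, adjusted p = 0.214, with the clone block 0.0446). It was 0.38 ± 0.10 in Cic+/+ (1.30-fold, adjusted p = 0.124, with the clone block 0.026). The genotype difference was 0.21 ± 0.11 with EGF (adjusted p = 0.535), where the arrays did not overlap, and 0.16 ± 0.11 without EGF (adjusted p = 0.669), where they did. Taken from the brightest probeset alone these were 0.61 (adjusted p = 0.152) and 0.606 (adjusted p = 0.144). In descending order the means were 8.911 ± 0.0285 in Cic-/- with EGF, 8.70 ± 0.076 in Cic+/+ with EGF, 8.482 ± 0.0981 in Cic-/- without EGF and 8.324 ± 0.0755 in Cic+/+ without EGF, and each step between neighbours was larger than the SDs of the groups on either side.

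Spred2, which encodes another Ras-pathway inhibitor of the same build, was 10.85, 10.85 and 10.57 in Cic-/- with EGF, against 10.35, 10.44, 10.47 and 10.47 in Cic+/+ with EGF. Without EGF it was 10.78, 10.87 and 10.43 in Cic-/-, against 10.39, 10.31, 10.32 and 10.64 in Cic+/+. The genotypes did not overlap with EGF and overlapped without it, and clone 7 was the low Cic-/- clone in both media. The difference was 0.32 ± 0.14 with EGF (adjusted p = 0.443) and 0.28 ± 0.14 without (adjusted p = 0.521). EGF moved it by 0.06 ± 0.15 in Cic-/- and 0.02 ± 0.13 in Cic+/+, with 95% intervals from -0.27 to 0.39 and from -0.27 to 0.30.

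Spred1, the member whose loss in humans causes Legius syndrome, held between 9.89 and 10.35 in all 14 arrays. Its genotype differences were 0.09 with EGF and 0.06 without, and its EGF differences were -0.08 in Cic-/- and -0.11 in Cic+/+. The groups overlapped in each of these comparisons.

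Among the phosphatase genes, Dusp6 varied widely between clones without EGF. It was 10.67, 11.44 and 11.45 in Cic-/- with EGF and 9.98, 9.91 and 11.51 in Cic-/- without EGF. It was 11.46, 11.34, 10.99 and 11.05 in Cic+/+ with EGF and 11.38, 10.63, 10.30 and 10.31 in Cic+/+ without EGF. Clones 7 and 1 without EGF were as high as the arrays with EGF, and the other 5 clones without EGF were lower than all arrays with EGF. The EGF difference was 0.72 ± 0.39 in Cic-/- with an adjusted p of 0.6, and 0.55 ± 0.34 in Cic+/+ with an adjusted p of 0.545. The value in Cic-/- was 0.315 without clone 6 and 1.11 without clone 7. Over both genotypes it was 0.64, with an adjusted p of 0.202 without the clone block and 0.0553 with it, and it passed with the block when clone 1 or clone 7 was left out. The genotype difference was -0.02 ± 0.37 with EGF and -0.19 ± 0.37 without, with 95% intervals from -0.80 to 0.76 and from -0.97 to 0.60, so that differences of this size in either direction could not be told from none.

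Dusp4 had the largest genotype difference of the 9 genes with EGF. It was 7.28, 6.88 and 7.11 in Cic-/- with EGF, against 8.26, 8.08, 7.12 and 7.99 in Cic+/+ with EGF. Without EGF it was 6.83, 6.39 and 7.06 in Cic-/-, against 7.85, 6.91, 6.35 and 7.74 in Cic+/+. The genotypes overlapped in both media, through clone 3 with EGF and through clones 2 and 3 without it. The difference was -0.77 ± 0.34 with EGF (1.71-fold lower, 95% interval -1.51 to -0.03, adjusted p = 0.443) and -0.46 ± 0.34 without (adjusted p = 0.696), and neither passed. EGF was accompanied by higher Dusp4 in 7 of 7 clones, by 0.33 ± 0.37 in Cic-/- and 0.65 ± 0.32 in Cic+/+, and this did not pass with or without the random clone block (adjusted p = 0.593 and 0.135 with it). With the clone as a fixed term it passed in Cic+/+ (adjusted p = 0.0431), as did 969 of all 17364 genes in either direction.

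Dusp5 was higher without Cic in the absence of EGF in its array values. It was 7.95, 7.87 and 7.61 in Cic-/- without EGF, against 7.46, 6.95, 7.28 and 7.38 in Cic+/+ without EGF. With EGF it was 8.14, 8.08 and 7.50 in Cic-/-, against 7.73, 7.24, 7.64 and 7.97 in Cic+/+. The genotypes did not overlap without EGF and overlapped with it, where clone 7 was low. The difference was 0.54 ± 0.20 without EGF (1.45-fold, adjusted p = 0.335) and 0.26 ± 0.20 with it (adjusted p = 0.695), and neither passed.

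**Figure D1:**
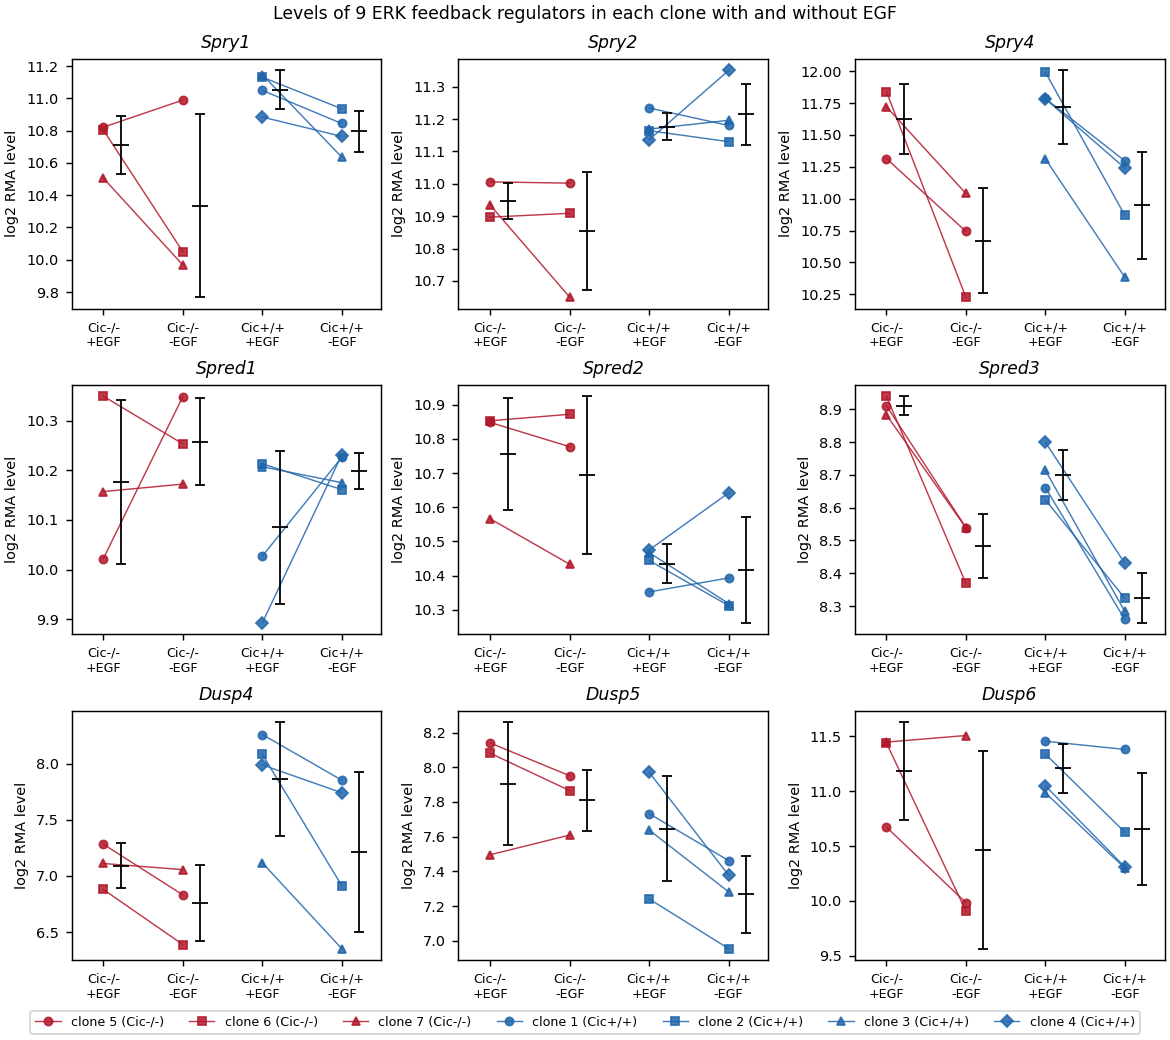
Log2 level of each of the 9 genes (y axis, own scale per panel) in the 4 groups (x axis), with a line joining the 2 arrays of a clone, Cic-/- in red and Cic+/+ in blue, and black bars for mean ± SD. Spry4 and Spred3 are higher with EGF in every clone, and all Spry2 values of Cic-/- lie below those of Cic+/+.

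For the loss of Cic, 0 of the 9 genes passed in cells with EGF, where 0.317% of all genes did, and 0 in cells without EGF, where 0.553% did. At an unadjusted p under 0.05 the numbers were 2 with EGF (Spred2 higher, Dusp4 lower) and 3 without (Dusp5 higher, Spry1 and Spry2 lower), while 10.6% and 10.8% of all genes met this. Arrays of the genotypes did not overlap for 4 genes with EGF (Spred2 and Spred3 higher, Spry1 and Spry2 lower), against 11.7% of all genes, and for 2 without EGF (Dusp5 higher, Spry2 lower), against 9.38%. Both directions thus occurred among the 9 genes in both media. Their median change was -0.02 with EGF and -0.19 without, against 0.02 and -0.003 over all genes. A fit on the mean of both media in each clone, added after the data were seen, also called 0 of 9, with 0.265% of all genes called. The smallest adjusted p there was 0.34, for Spry2, and 3 genes had an unadjusted p under 0.05 (Spred2 higher, Spry1 and Spry2 lower), against 11.3% of all genes.

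**Figure D2:**
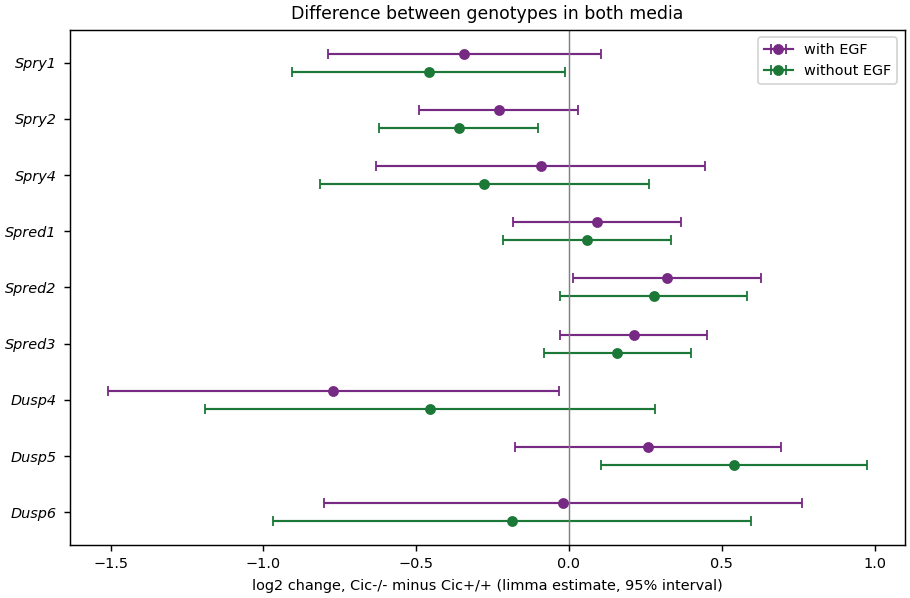
Change of each gene between Cic-/- and Cic+/+ (x axis, log2, limma estimate with its 95% interval) with EGF in purple and without EGF in green. The estimates of Spry1, Spry2, Spry4, Dusp4 and Dusp6 lie left of 0 in both media. Those of Spred1, Spred2, Spred3 and Dusp5 lie right of it. Most intervals reach across 0, and no gene passed after adjustment.

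Cell type markers also differed between these groups. The mean of 6 myelinating oligodendrocyte markers was 5.295 to 5.579 in Cic-/- with EGF, against 5.825 to 6.295 in Cic+/+ with EGF, and 5.376 to 5.772 in Cic-/- without EGF, against 7.631 to 8.182 in Cic+/+ without EGF. The mean of 6 oligodendrocyte progenitor markers was 8.816 to 9.251 in Cic-/- with EGF, against 9.732 to 10.25 in Cic+/+ with EGF, and 9.689 to 10.48 in Cic-/- without EGF, against 10.33 to 10.67 in Cic+/+ without EGF. Single progenitor markers were uneven. With EGF only Pdgfra passed for the loss of Cic (-2.61, adjusted p = 0.0082), while Olig1, Cspg4 and Olig2 differed by -0.146, -0.174 and -0.295. In Cic+/+ Gpr17 averaged 7.757 with EGF and 10.47 without, but Pdgfra 10.15 and 9.888. The mean of 5 astrocyte markers was 8.472 to 8.672 in Cic-/- with EGF and 8.945 to 9.569 without, and 8.26 to 9.18 in Cic+/+ with EGF and 9.651 to 10.19 without. In Cic-/- Gfap went against the other astrocyte markers, at 7.608 with EGF and 7.145 without. Only Aqp4 passed for EGF there, at 7.163 with EGF and 8.878 without (adjusted p = 0.00713 with the block, 0.0758 without it). The mean of 5 neuroblast and neuron markers was 6.972 to 7.337 in Cic-/- with EGF and 7.694 to 8.039 without, and 7.243 to 7.374 in Cic+/+ with EGF and 7.324 to 7.653 without. Of these Cd24a rose without Cic in cells without EGF (11.17 in Cic-/- and 9.848 in Cic+/+, adjusted p = 0.0069), and Dcx of neuroblasts fell with EGF in Cic-/- with the block, to 6.469 with EGF against 9.209 without (adjusted p = 0.00393, without the block 0.0518). These markers did not move alike. Without EGF Dcx averaged 9.209 in Cic-/- and 9.192 in Cic+/+. With the block Cd24a rose with EGF in Cic+/+, to 10.56 against 9.848 without (adjusted p = 0.0208, without the block 0.103). Tubb3, Stmn2 and Rbfox3 passed in none of the comparisons. The part of these cells in the values of the 9 genes was not tested, and in a culture measured in bulk fewer cells of a type and less RNA per cell cannot be told apart.

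EGF within each genotype gave 0 of 9 passing genes without the clone block, with 0.19% of all genes passing in Cic-/- and 0.898% in Cic+/+. With the random block 2 genes, Spry4 and Spred3, passed in each genotype, with 1% of all genes called higher in Cic-/-, 1.97% in Cic+/+ and 0.536% in both. These were also the 2 genes with an unadjusted p under 0.05 without the block in each genotype, which 9.8% of all genes had in Cic-/- and 12.5% in Cic+/+. They were also the 2 genes whose arrays did not overlap between the media, with 6.63% of all genes higher in this way in Cic-/- and 3.44% in Cic+/+. With the clone as a fixed term Spry4 passed in both genotypes (adjusted p = 0.0392 in Cic-/- and 0.0358 in Cic+/+), while Spred3 did not (0.106 in Cic-/- and 0.0768 in Cic+/+).

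Calls within 1 genotype were lost when clones were left out, while the Spred3 change stayed at 0.358 to 0.471 in Cic-/- and 0.357 to 0.401 in Cic+/+. The Spry4 change ranged from 0.626 (without clone 6) to 1.15 (without clone 5) in Cic-/- and from 0.654 to 0.865 in Cic+/+. In Cic-/- the adjusted p with the block was 0.272 for Spry4 and 0.263 for Spred3 without clone 6. There Spry4 kept the call with clone 1 or 3 left out and with no other, and Spred3 lost it whichever clone was left out (adjusted p from 0.0521 to 0.263), also where this was a Cic+/+ clone and the change itself stayed at 0.429. In Cic+/+ both genes lost the call when clone 2, 3 or 4 was left out, and Spred3 also without clone 1. Over both genotypes together both passed with the block whichever clone was left out, with adjusted p from 0.00298 to 0.012 for Spry4 and from 0.00508 to 0.0164 for Spred3.

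The clones showed how even these differences were. The EGF difference of Spred3 was between 0.30 and 0.57 in the 7 clones, while that of Spry4 was between 0.49 (clone 1) and 1.61 (clone 6). Dusp4 was higher with EGF in all 7 clones but ranged from 0.05 (clone 7) to 1.17 (clone 2). Clone 6 had the largest difference for Spry4, Spry1 (0.755), Spred3 and Dusp6 (1.53). Spry1, Dusp5 and Dusp6 were higher with EGF in 6 of 7 clones, the exceptions being clone 5 for Spry1 (-0.17) and clone 7 for Dusp5 (-0.11) and Dusp6 (-0.06). Spry2 and Spred2 were higher in 4 of 7 clones and Spred1 in 3, with differences from -0.338 to 0.285. Counted by clone, all 9 genes were higher with EGF in clone 2, 8 in clone 3, 7 in clones 1, 5 and 6, and 6 in clones 4 and 7. The median over the 9 genes of the fitted difference was 0.33 in Cic-/- and 0.38 in Cic+/+, against 0.006 and -0.002 over all genes.

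**Figure D3:**
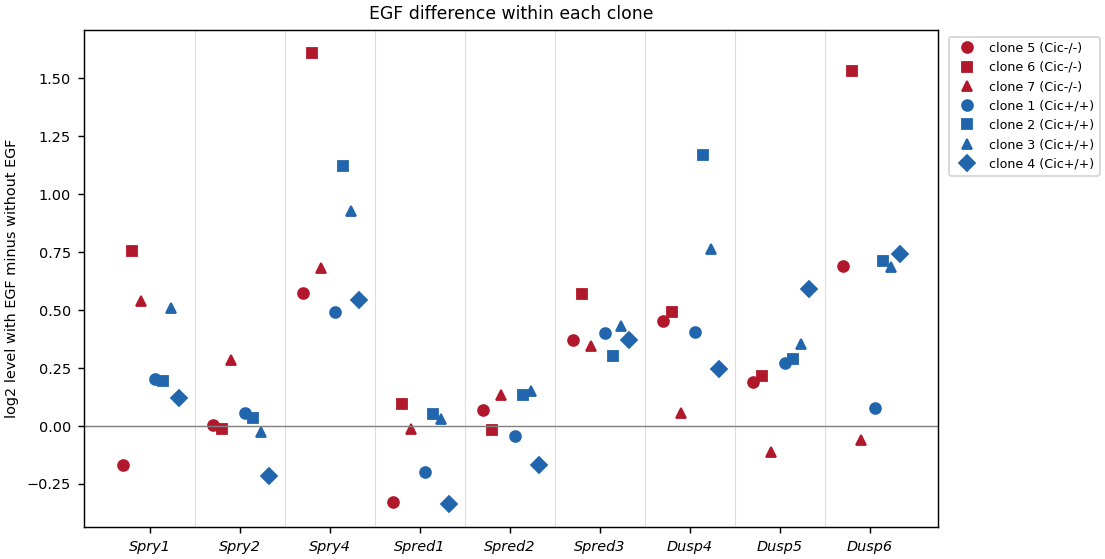
Log2 level with EGF minus that without EGF in each clone (y axis) for the 9 genes (x axis), Cic-/- clones in red and Cic+/+ clones in blue. Spry4, Spred3 and Dusp4 are above 0 in all 7 clones, and Dusp6 is near 0 in clones 1 and 7.

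Whether the EGF difference depended on Cic was tested as the difference of both EGF effects, Cic-/- minus Cic+/+. None of the 9 genes passed, nor had any an unadjusted p under 0.05, which 2.86% of all genes had, and 1 gene of all (0.00576%) passed. For Spry4 the value was 0.18 (95% interval -0.58 to 0.95), for Spred3 0.05 (-0.29 to 0.40), for Dusp6 0.17 (-0.94 to 1.27) and for Dusp4 -0.32 (-1.36 to 0.73). The upper bound for Spry4 was 0.946, against EGF effects of 0.96 in Cic-/- and 0.77 in Cic+/+. For Spred3 the upper bound was 0.395, against EGF effects of 0.43 in Cic-/- and 0.38 in Cic+/+. For both genes it exceeded the EGF effect in Cic+/+, so an EGF effect larger by that amount in Cic-/- could not be told from none. The lower bounds, -0.58 for Spry4 and -0.29 for Spred3, did not reach a loss of the whole Cic+/+ effect. The bounds for Dusp4 and Dusp6 are larger than their EGF effects, so that a dependence of the full size of the effect was not detectable there with 7 clones.

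The probesets of a gene, which read different stretches of its transcript, mostly moved together where the gene did. All 4 probesets of Spry4 were higher with EGF, by 0.80 to 0.98 in Cic-/- and by 0.73 to 0.92 in Cic+/+. All 7 of Dusp4 were higher with EGF in both genotypes and lower in Cic-/- in both media, with changes from -0.911 to -0.465 with EGF. For Spred3, 5 of 6 probesets in Cic-/- and 6 of 6 in Cic+/+ were higher with EGF, and probeset 17488736 passed in Cic+/+ with the clone block (0.72, adjusted p = 0.048, with 0.815% of all 233753 probesets called). All 7 probesets of Spry1 and all 4 of Spry2 were lower in Cic-/- than in Cic+/+ in both media, by uneven amounts. The brightest Spry2 probeset differed by -0.0998 with EGF and -0.179 without, and the dimmest by -0.837 and -0.755. The brightest Spry1 probeset differed by -0.167 with EGF and -0.161 without.

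One probeset of Dusp5, 17360354, passed for the loss of Cic without EGF. Its log2 level averaged 9.812 in Cic-/- and 8.621 in Cic+/+ without EGF, a rise of 1.19 (adjusted p = 0.0242 over all probesets, with 0.166% of them called). With EGF the same probeset was at 9.796 in Cic-/- and 9.076 in Cic+/+, a difference of 0.72 that did not pass (adjusted p = 0.293). It is the brightest of 6 probesets of Dusp5, and the other 5 differed by -0.05 to 0.82 without EGF. Of the 6 probesets of Dusp6, 1 was under the dim limit and hardly moved (0.06 in Cic-/- and -0.05 in Cic+/+ with EGF).

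**Figure D4:**
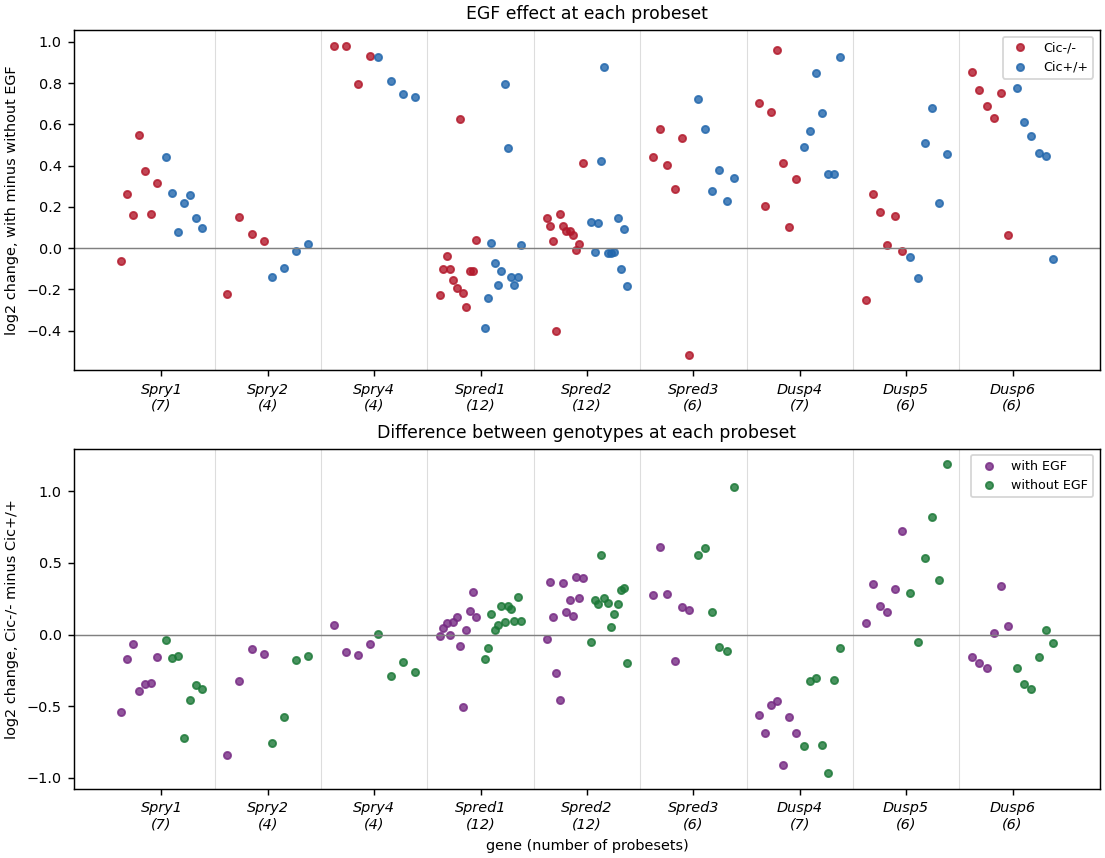
Log2 change of each probeset (1 point each) of the 9 genes with EGF (upper panel, Cic-/- in red, Cic+/+ in blue) and between genotypes (lower panel, with EGF in purple, without EGF in green). All Spry4 points lie between 0.73 and 0.98 in the upper panel, and all Dusp4 points are below 0 in the lower panel.

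Other genes of the pathway were followed in 4 lists chosen with earlier results of these data known. None of their genes passed in any comparison of limma without the clone block. At an unadjusted p under 0.05, EGF gave 5 higher and 1 lower of the ERK-induced transcripts of 22 in Cic-/-, where 4.77% of all genes were higher and 5.03% lower, and 9 higher and 1 lower in Cic+/+, where 5.23% were higher and 7.23% lower. Of 22 transcripts that ERK is known to induce, the median EGF difference was 0.33 in Cic-/- and 0.35 in Cic+/+, close to the medians of the 9 feedback genes. With the block 1 of the 22 passed in Cic-/-, Egr3, a growth factor-induced transcription factor, with a mean of 8.034 with EGF and 6.925 without (adjusted p = 0.0389), where the blocked fit called 1% of all genes higher. In Cic+/+ 5 passed as higher and 1 as lower, where 5.17% of all genes passed in either direction. Egr3 averaged 7.353 with EGF and 6.422 without (adjusted p = 0.0263), and Epha2, a receptor tyrosine kinase gene, 6.50 with EGF and 5.425 without (adjusted p = 0.0288). The others were Egr1, Egr2 and Ccnd1 as higher and the ephrin receptor gene Epha4 as lower, named after their values were seen. Ccnd1, which encodes cyclin D1, averaged 12.62 with EGF and 11.52 without in Cic+/+ (adjusted p = 0.0461), and 12.49 and 11.39 in Cic-/- (adjusted p = 0.107). Etv1, a transcription factor gene that capicua represses in other mammalian cells, averaged 9.126 in Cic-/- without EGF, against 7.74 in Cic+/+ without EGF. This difference of 1.39 ± 0.29 just missed the threshold (adjusted p = 0.0504, with the clone block 0.0604). With EGF Etv1 averaged 8.036 in Cic-/- and 8.101 in Cic+/+ (adjusted p = 0.968). Etv4 and Etv5 of the same list differed between genotypes by 0.06 and 0.41 without EGF (adjusted p = 0.978 and 0.464).

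The relatives of the 9 genes (Spry3, Dusp1, Dusp2, Dusp7, Dusp8, Dusp9, Dusp10 and Dusp16) had a median EGF difference of 0.21 in Cic-/- and 0.05 in Cic+/+. With the block 2 of these 8 passed in Cic+/+, where that fit called 5.17% of all genes in either direction. Dusp16 rose, to a mean of 9.251 with EGF against 8.706 without (adjusted p = 0.0387), and Dusp9 fell, to 5.675 with EGF against 6.303 without (adjusted p = 0.0325). Dusp10, a phosphatase of p38 and JNK, was higher in Cic-/- by 0.60 ± 0.26 with EGF (adjusted p = 0.435) and by 0.64 ± 0.26 without (adjusted p = 0.394), and did not pass.

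Among 14 other inhibitors of receptor kinases or Ras the median EGF difference was -0.04 in Cic-/- and 0.01 in Cic+/+. With the block 1 of the 14 passed for EGF, in Cic+/+, where that fit called 5.17% of all genes. Rasa2, a Ras GTPase-activating protein gene, fell with EGF in Cic+/+, to 8.066 with EGF against 8.715 without (adjusted p = 0.00902). In the ERK cascade itself, with 16 of 21 listed genes tested, the median EGF difference was -0.02 in Cic-/- and -0.09 in Cic+/+, and no gene passed for EGF. With the block 1 passed for the loss of Cic without EGF. Rps6ka1, which encodes the ERK-activated kinase RSK1, fell, to 8.023 in Cic-/- against 9.016 in Cic+/+ (adjusted p = 0.048, without the block 0.0744), where the blocked fit called 0.697% of all genes.

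**Figure D5:**
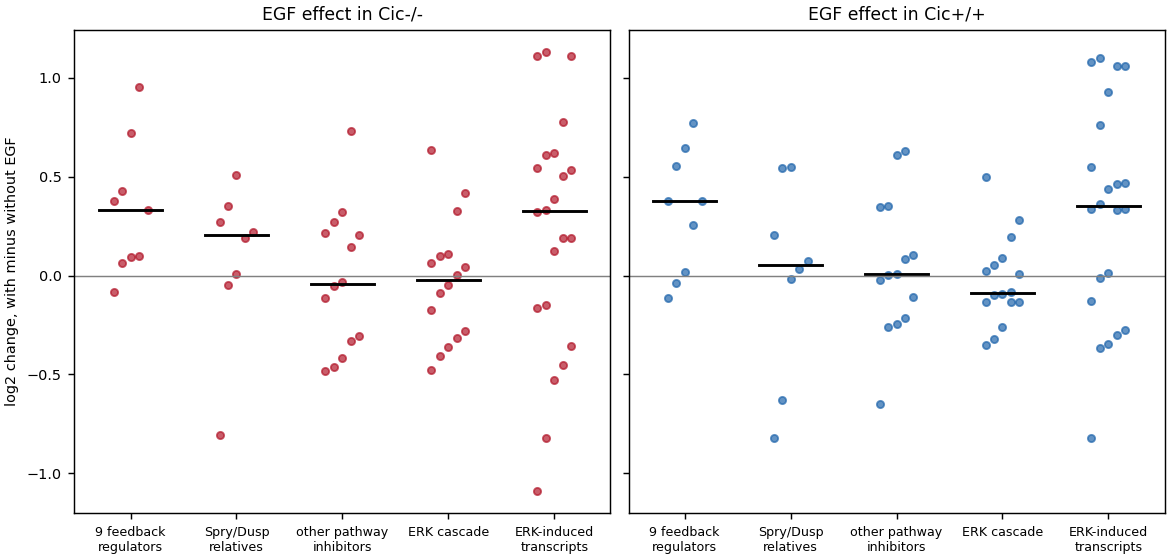
Log2 EGF difference (y axis) of every tested gene of the 9 feedback regulators and of 4 pathway lists (x axis) in Cic-/- (left) and Cic+/+ (right), with the list median as a black bar. The medians of the feedback regulators (0.33 and 0.38) and of the ERK-induced transcripts (0.33 and 0.35) are the highest of the 5, and both lists hold genes on either side of 0.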

How the data were processed

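RMA values per probeset were deposited on the log2 scale by the authors, per the submitters' processing notes. The RMA version was not given in the sources used here, nor was the genome build behind the annotation. The deposit held 269751 probesets, of which 233753 named 1 gene, 5106 several and 30892 none. Only the first kind was used, and the median of its probesets gave the value of a gene. The lowest 25% of genes by mean level (5788 genes) were left out. Of 23152 symbols, 20875 were in RefSeq (GRCm38.p6), 2274 were synonyms there and 3 were on the array alone.

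The test was that of limma 3.58.1 (R 4.3.3, data.table, version 1.17.8), with 4 group means over all 14 arrays, 10 residual and 4.06 prior degrees of freedom and Benjamini-Hochberg adjustment over the 17364 genes tested. The threshold was an adjusted p of 0.05, and rose and fell are used of genes or probesets that passed. All p values are two-sided. Arrays with and without EGF that share a clone number in the labels came from the same animal. The main fit did not use this pairing, and only the fits with a clone block or a fixed clone term did. Deviations from the group means correlated within clones at 0.1563 to 0.6159, and the consensus correlation of the random clone block was 0.3476. Blocked values are given where they change a call. Figures used Python 3.11.15, pandas 2.3.3 and matplotlib 3.10.9.

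The 9 genes, the lists and the tests were chosen with earlier results of these data known. Named genes are the 9, up to 4 passing and up to 2 other genes of each list per comparison by smallest p, and the 3 genes most correlated with each of the 9. The procedure was run on simulated data to which EGF changes but no Cic changes were added. This was a check of the code and gives no support to the calls made here. The alternatives tried were the mean or the brightest probeset, no dim filter or one at 50%, array centring and quantile normalization of the gene values. A trended robust prior, fits on only the arrays compared, the clone block and leaving out each clone were also tried. Alternatives added later are named as such.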

Additional observations from a re-analysis of the deposited data

Results flagged for a closer look

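The EGF difference of Dusp6 in Cic+/+ clone 1 stood apart from the other 3 clones of its group. It was 0.0757 on the log2 scale in clone 1, against 0.688 to 0.74 in clones 2 to 4. In clone 1 Dusp6 was 11.46 with EGF and 11.38 without, so that the array without EGF was the high one of its group. The gap between clone 1 and the nearest other clone was 0.922 of the range of the group. Many groups were looked at, and how often such a gap appears by chance was not tested. The cause was not tested.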

How the results depend on the processing

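Without the clone block 0 of the 9 genes passed for the loss of Cic in either medium, for EGF in either genotype or for the difference of EGF effects. This became 1 for the loss of Cic without EGF with the brightest probeset (Dusp5, 1.19, adjusted p = 0.00546), and 0 to 1 when a clone was left out (1 without clone 5, Spry1). For EGF it became 2 in each genotype with the random replicate block, and with the clone as a fixed term 1 in Cic-/- and 2 in Cic+/+. With the random block and a clone left out, added after the data were seen, it was 0 to 1 in Cic-/- and 0 to 2 in Cic+/+, and 2 to 3 of 9 over both genotypes, where 3 came without clone 1 or 7 (Dusp6 added) or without clone 5 (Spry1 added). The block changed no other call among the 9 genes.

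Over single genes, 700 values under an alternative kept their direction and side of the threshold, 9 passed newly and 29 turned direction, none of which passed. The mean over probesets turned the EGF difference between genotypes of Spred1 (-0.0628), Spred2 (-0.0509) and Spred3 (-0.133). The brightest probeset turned it for Spry1 (-0.0063), Spred1 (-0.0304) and Spred2 (-0.0844), the loss of Cic with EGF for Dusp6 (0.014) and EGF in Cic-/- for Dusp5 (-0.0161). Centring turned Dusp6 for the loss of Cic with EGF (0.0141). Leaving out a clone turned the loss of Cic for Dusp6 with EGF (-0.151 to 0.236) and without (-0.707 to 0.0928) and for Spry4 with EGF (-0.228 to 0.0621). It turned EGF in Cic+/+ for Spred2 (-0.0253 to 0.0801) and Spry2 (-0.069 to 0.0204), and in Cic-/- for Spred1 (-0.17 to 0.0403) and Spry2 (-0.00414 to 0.144). It turned the difference of EGF effects for Spry1 (-0.0725 to 0.389), Spry4 (-0.145 to 0.375), Spred1 (-0.0572 to 0.153), Spred2 (-0.0184 to 0.087), Spred3 (-0.0178 to 0.0955) and Dusp6 (-0.24 to 0.556). The cause was not tested.

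Over all genes, the calls ranged with a clone left out from 19 to 60 for the loss of Cic with EGF (all clones, 55) and 53 to 125 without (96), and for EGF from 0 to 68 in Cic-/- (33) and 17 to 217 in Cic+/+ (156). Under the other alternatives they ranged from 39 to 81, 44 to 170, 3 to 519 and 108 to 969, and for the difference of EGF effects from 0 to 7 (all clones, 1). With 3 and 4 arrays a group, intervals as wide as that of Dusp6 limit what can be seen.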

Other observations

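Genes whose level ran most like that of a feedback gene over the 14 arrays are given by Pearson r, as a description over arrays that share clones and groups. Closest to Spry4 were Ccnd2 (0.922), which encodes cyclin D2, E2f1 (0.91), an activator of S phase genes, and Camkk2 (0.905). Closest to Spred3 were Fndc3b (0.954), Camkv (0.921) and Cd248 (0.911). Closest to Dusp6 were Ddx56 (0.965), Rasl11a (0.964) and Srm (0.959), which encodes spermidine synthase. For Dusp4 they were Tex16 (0.909), Ranbp3 (0.874) and Hunk (0.874), and for Dusp5 Cdc42ep3 (0.879), the glucose transporter gene Slc2a3 (0.848) and Pgc (0.84).

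For Spry1 they were the adhesion gene Chl1 (0.915), the tubulin gene Tubb5 (0.902) and Gm4184 (0.892), for Spry2 Ccdc8 (0.925), Trnp1 (0.923) and the copper chaperone gene Atox1 (0.921). For Spred2 they were Ero1l (0.922), Foxj2 (0.92) and Cyp2j13 (0.915), and for Spred1 Gpr101 (0.874), Klhl11 (0.797) and Rpgr (0.768). None of the 3 closest genes was another of the 9. Among themselves the highest values were 0.788 between Spry4 and Dusp6, 0.756 between Spry4 and Dusp4, and 0.721 between Spred2 and Dusp5.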
